A study of Homo sapiens with 26 samples.

Results

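NCI-H1048 is a human small cell lung cancer line that carries the transcription factor POU2F3, and the comparison described here is between its cells 4 days after infection with guide RNAs against POU2F3 and its cells 4 days after infection with a control guide. Genes were taken from the deposited expression table of this line when their FPKM (fragments counted per kilobase of transcript, scaled to the depth of the library) was at least 1 in either of the 2 columns, which kept 12460 of 19128 genes. For each gene the difference of log2(FPKM + 1), POU2F3 guides minus control guide, is called the log2 ratio below. Polyadenylated RNA was sequenced in 26 libraries of small cell lung cancer lines. NCI-H1048 gave 4 of them. The first, labelled sgPOU2F3e10.1, and the second, labelled sgPOU2F3e10.2, were infected by lentivirus with guides against POU2F3. The third, labelled sgNeg, was infected with the control guide, and the fourth was the uninfected parental line in exponential growth. NCI-H1048 was grown in HITES, a defined medium, and this holds for all 4 libraries. The authors deposited the 2 POU2F3 guides as 1 combined column, so each arm has 1 value, no spread between guides can be given and no test can be made within the line. The text therefore speaks of size alone, and "rose" and "fell" are used only for a change of at least 2-fold on the log2(FPKM + 1) scale. The labels name no clone, and the share of cells in which POU2F3 was disrupted is not given in the sources used here. In bulk RNA, a change in fewer cells and a smaller change in every cell cannot be told apart.

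POU2F3 is a POU-domain transcription factor that binds the octamer element in DNA and is needed for the formation of tuft cells, the chemosensory cells of mucosal epithelia. Tuft cells carry an actin bundle at their apical tip, detect ligands through a signalling cascade shared with taste cells, and release lipid mediators and cytokines. A subset of small cell lung cancers expresses POU2F3 with other tuft cell genes and little of the neuroendocrine programme seen in most such tumours.

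The question of which genes changed near an octamer was described on the annotated starts of RefSeq, build GRCh38.p14, over windows of 300 bases from 250 before to 50 after each start. The motif searched was ATGCAAAT on both strands (ATTTGCAT on the other). It was found in a window of 3 of the 93 genes that fell and had an entry (3.23%), in 6 of the 115 that rose (5.22%), and in 214 of the 10339 of all genes tested (2.07%). Over the whole table, 623 of 35116 windows held it (1.77%). The 3 that fell were BMX, SUCNR1 and HTR3E, and the 6 that rose were AZGP1, LIPG, ELF3, NEDD9, ZBTB7C and HS3ST3B1. All 3 that fell passed the filter only through sgNeg and were low there, so their share of 3.23% rests on such genes alone. These 9 were named after their values were seen, and a match is a description of letters and not a site of binding. The 250 bases before the start are shown 5′ to 3′ on the strand of the gene for 4 genes described below, with the octamer in capitals. SUCNR1 and HTR3E are genes that fell with the octamer, HS3ST3B1 is the gene with the largest rise that holds it, and AVIL fell among the most and has no match in its window.
AVIL: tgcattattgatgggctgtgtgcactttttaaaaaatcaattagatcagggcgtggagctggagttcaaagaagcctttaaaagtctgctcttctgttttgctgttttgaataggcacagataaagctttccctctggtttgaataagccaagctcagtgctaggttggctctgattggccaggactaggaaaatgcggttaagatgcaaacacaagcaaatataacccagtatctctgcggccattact
SUCNR1: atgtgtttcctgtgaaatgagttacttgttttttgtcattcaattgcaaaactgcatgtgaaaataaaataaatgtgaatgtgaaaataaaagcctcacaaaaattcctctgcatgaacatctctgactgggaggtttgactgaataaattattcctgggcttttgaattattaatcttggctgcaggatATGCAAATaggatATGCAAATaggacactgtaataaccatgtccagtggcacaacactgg
HTR3E: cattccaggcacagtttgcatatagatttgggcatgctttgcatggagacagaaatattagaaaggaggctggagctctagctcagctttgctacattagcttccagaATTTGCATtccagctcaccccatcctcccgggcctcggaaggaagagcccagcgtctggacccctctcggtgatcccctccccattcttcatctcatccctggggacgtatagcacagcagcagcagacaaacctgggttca
HS3ST3B1: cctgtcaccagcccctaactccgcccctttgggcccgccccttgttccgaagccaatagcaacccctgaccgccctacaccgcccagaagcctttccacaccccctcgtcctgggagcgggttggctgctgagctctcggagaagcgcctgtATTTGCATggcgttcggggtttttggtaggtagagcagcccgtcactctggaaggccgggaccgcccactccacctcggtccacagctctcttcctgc
The AVIL stretch lies at chr12:57818735-57818984 on the minus strand. The others lie on the plus strand, SUCNR1 at chr3:151873393-151873642, HTR3E at chr3:184099929-184100178 and HS3ST3B1 at chr17:14300831-14301080. In SUCNR1 the 2 octamers begin at positions -60 and -47 from the start, in HTR3E the octamer begins at -142 and in HS3ST3B1 at -98. SUCNR1, the receptor for succinate, had an FPKM of 7.47 in the parental library, 2.48 in sgNeg and 0.311 in sgPOU2F3. HTR3E, a subunit of the serotonin-gated ion channel, stood at 2.41, 1.86 and 0.169. HS3ST3B1, a heparan sulfate sulfotransferase, went the other way, at 3.64, 3.90 and 34.7.

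The spacing of low FPKM values put the depth at about 10.8 M fragments for sgNeg, 17.7 M for the combined sgPOU2F3 column and 18.4 M for the parental library (M, mega). At the sgNeg depth an FPKM of 1 over a transcript of 2 kb is about 21.5 fragments, so levels near 1 rest on few fragments. Genes listed at 0 made up 18.3% of the sgNeg column, 15.7% of the sgPOU2F3 column and 17.8% of the parental column. By rank correlation over genes, both columns were closest to the parental NCI-H1048 library among 14 parental lines, at 0.977 for sgNeg and 0.970 for sgPOU2F3, with the next line at 0.863 or lower.

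POU2F3 itself had an FPKM of 189 in the parental library, 198 in sgNeg and 60.8 in sgPOU2F3, so 30.7% of the sgNeg level was left (log2 ratio -1.69). This is the level of RNA, and the POU2F3 protein left was not measured in these data. The sgNeg and parental columns were close to each other and the POU2F3 guides stood well below both. The parental column was scaled in another table, so levels set across the tables are given side by side only.

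Across the 12460 genes, 277 changed at least 2-fold (2.22%). Of these 149 rose (1.2% of all genes tested) and the others fell (1.03%). The median log2 ratio was -0.00, and 90 in 100 genes lay between -0.45 and 0.48. The changes were spread over expression levels. Of 2606 genes whose higher column was between 1 and 5 FPKM, 28 fell and 41 rose. At 5 to 20 FPKM it was 49 and 47 of 5161, at 20 to 100 FPKM 47 and 49 of 3883, and at 100 FPKM or more 4 and 12 of 810.

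**Figure D1:**
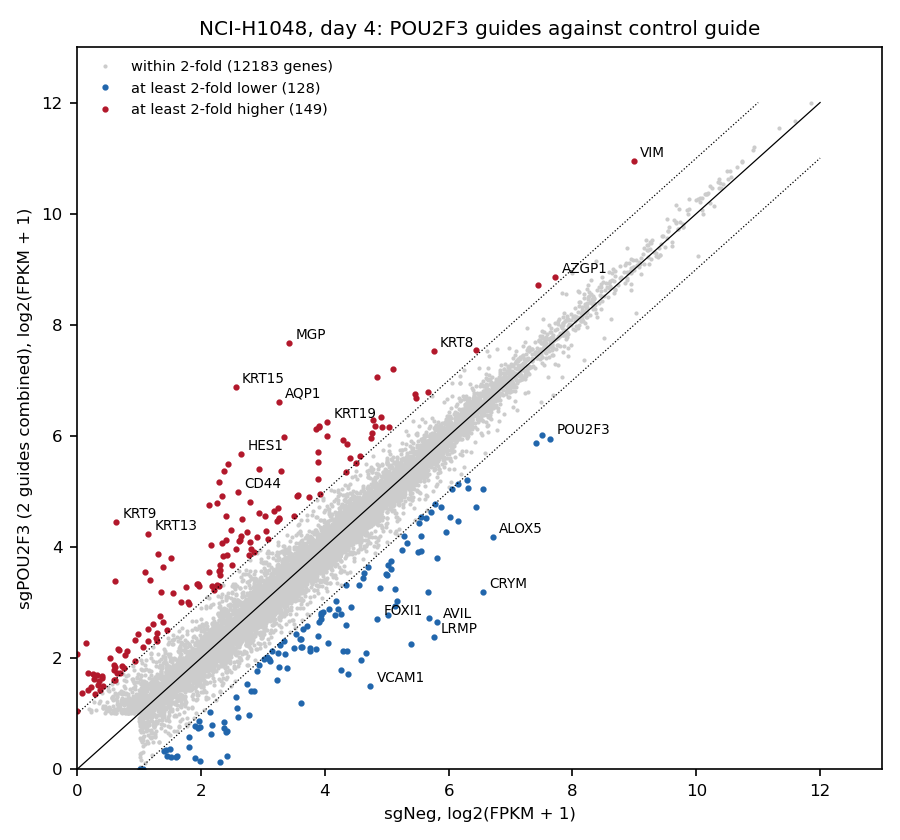
Each point is 1 of the 12460 genes, with log2(FPKM + 1) in sgNeg on the horizontal axis and in the combined sgPOU2F3 column on the vertical axis; the solid line marks equal values and the dotted lines a 2-fold change. The genes that fell (1.03%) and the 149 that rose (1.2%) leave the diagonal over the whole range of levels, from KRT9 (0.547 in sgNeg) to VIM (507 in sgNeg).

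The largest fall of all was in LRMP, a membrane protein of the endoplasmic reticulum that marks tuft cells. Its FPKM was 116 in the parental library, 53.5 in sgNeg and 4.20 in sgPOU2F3, which left 7.84% of the sgNeg level (log2 ratio -3.39). CRYM, a protein that binds thyroid hormone, followed with 156, 93.4 and 8.14 (log2 ratio -3.37). AVIL, the actin-bundling protein advillin of the tuft cell apex, stood at 76.2, 55.0 and 5.28 (log2 ratio -3.16). For LRMP, CRYM and AVIL the sgNeg value lay below the parental one and sgPOU2F3 far below both. ALOX5, the lipoxygenase that begins leukotriene synthesis, had the highest sgNeg level among the 15 largest falls, with 132 in the parental library, 104 in sgNeg and 17.1 in sgPOU2F3 (log2 ratio -2.54).

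**Figure D2:**
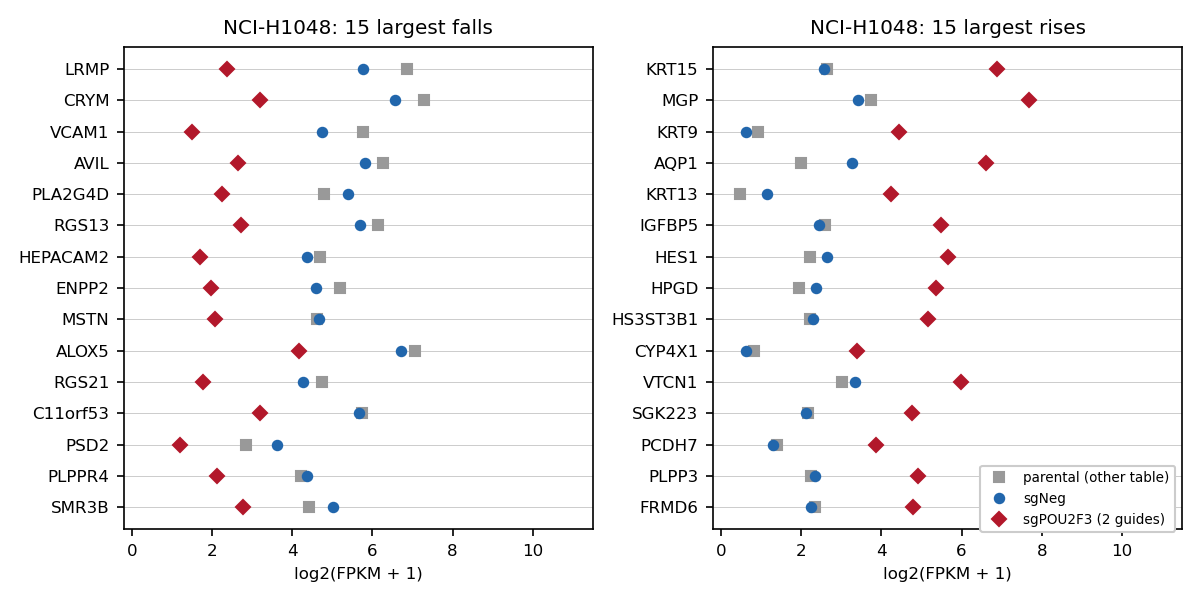
Log2(FPKM + 1) of the 15 genes that fell most (left) and the 15 that rose most (right) in the NCI-H1048 parental library, the sgNeg column and the combined sgPOU2F3 column; the parental library comes from a table scaled separately. The genes were chosen by the difference between sgPOU2F3 and sgNeg, so these points stand apart by construction. The sgNeg points lie nearer to the parental than to the sgPOU2F3 points, which the choice also favours, as for KRT15 at 4.88 and 5.24 against 116.

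Transcription factors and coactivators of tuft cells were a list of 16 genes, of which 13 passed the filter on low values. Of these 3 fell and 3 rose, and the median log2 ratio was -0.38 against -0.00 over all genes, and 0.22 with the parental library as baseline. C11orf53, a coactivator of POU2F3, fell from 49.5 in sgNeg to 8.09 in sgPOU2F3, with 52.6 in the parental library. GFI1B, a zinc finger repressor found in tuft cells, fell from 33.9 to 8.50, with 27.2 in the parental library. COLCA2, the other coactivator of POU2F3, did not reach 2-fold, with 204 in sgNeg and 105 in sgPOU2F3 (log2 ratio -0.95). COLCA1 is read from the neighbouring stretch of the same locus, and it rose from 6.61 to 41.1 with 5.77 in the parental library. COLCA1 and COLCA2 lie on opposite strands of this locus and strand-specific counting is not stated, so reads from any shared stretch cannot be told apart. The other risers of this list, named here after their values were seen, were RUNX1, a factor best known from blood cells, at 14.2 and 30.0, and POU2AF1, the coactivator of octamer factors in B cells, at 0.288 and 1.69. POU2AF1 passed the filter only through sgPOU2F3. ASCL2, a bHLH factor of tuft cell-like tumours, was within 2-fold, at 11.3 and 9.69. SOX9, a factor of epithelial progenitors, was also within it, at 226 and 132.

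Among 23 tested genes for the tuft cell cytoskeleton and identity, 9 fell and 1 rose, with a median log2 ratio of -0.83. LRMP, CRYM, AVIL and HEPACAM2 were the largest. HEPACAM2, a cell adhesion protein, had 24.7 in the parental library, 19.7 in sgNeg and 2.27 in sgPOU2F3. PSD2, an exchange factor for Arf GTPases, had 6.23, 11.2 and 1.29. The falls included a cytoplasmic kinase and an adaptor that are also found in blood cells. BMX, a Tec family kinase, went from 4.29 to 0.580 and passed the filter only through sgNeg. SKAP2, an adaptor of Src family kinases, went from 45.8 to 17.4. BMX overlaps PIR, which also fell (37.1 to 14.3), and the pair carries the limit on overlapping genes given above. DCLK1, a widely used tuft cell marker, was low throughout, with 2.25, 3.65 and 2.58, and was within 2-fold. The riser of this list was KRT8, a keratin of simple epithelia described with the keratins below. The markers TRPM5, SH2D6 and PTGS1 did not pass the filter with the control guide, with sgNeg values of 0.109, 0.873 and 0.486.

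In the villin and gelsolin family, the actin-severing and bundling proteins, AVIL was the only one of 5 tested genes to fall, none rose, and the median of the family was 0.24.

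Of 20 genes for taste-type signal transduction 10 were tested, of which 5 fell and none rose, with a median log2 ratio of -1.10 (-0.01 with the untested genes included). Over all genes tested 1.03% fell. The 5 were 3 regulators of G-protein signalling, the alpha subunit gustducin and the succinate receptor. The genes of the last 2, GNAT3 and SUCNR1, passed the filter only through sgNeg. RGS13 had 69.1 in the parental library, 50.2 in sgNeg and 5.55 in sgPOU2F3 (log2 ratio -2.97). RGS21, a regulator known from taste cells, had 25.9, 18.2 and 2.44 (log2 ratio -2.48). RGS2 had 50.9, 92.8 and 31.8, so its sgPOU2F3 level was nearer to the parental than to the sgNeg level. GNAT3, the gene of gustducin, had 6.39, 4.17 and 0.663. The calcium release channel ITPR3, which acts further down this cascade, was within 2-fold with 40.8 in sgNeg and 35.7 in sgPOU2F3. GNB3, the beta subunit paired with gustducin, was within it too, with 7.83 and 8.42.

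Genes of lipid mediators moved in both directions. Of 11 tested genes of eicosanoid synthesis and breakdown, 2 fell and 1 rose, and the median was -0.01. ALOX5 is given above. PLA2G4A, the cytosolic phospholipase that frees arachidonic acid, had 49.4 in the parental library, 33.9 in sgNeg and 6.69 in sgPOU2F3. HPGD, the dehydrogenase that inactivates prostaglandins, rose from 4.19 to 40.5 with 2.85 in the parental library. LTA4H, which makes leukotriene B4 from the ALOX5 product, had 30.3 and 30.6. PTGES3, a chaperone with prostaglandin E synthase activity, had 309 and 288. PLA2G4D, another cytosolic phospholipase A2, was among the 5 largest falls of all genes, with 26.5 in the parental library, 40.9 in sgNeg and 3.77 in sgPOU2F3. ENPP2, the secreted enzyme autotaxin that makes lysophosphatidic acid, fell from 23.0 to 2.92, with 35.5 in the parental library. PLPPR4, a relative of the lipid phosphate phosphatases, fell from 19.6 to 3.34, whereas PLPP3, a phosphatase that degrades lysophosphatidic acid, rose 7.18-fold in FPKM from 4.04.

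The circuit by which tuft cells speak to type 2 immune cells, and their acetylcholine enzymes, showed no member past 2-fold among 6 tested. The largest change was in IL13RA1, a receptor chain for IL-13, with 67.2 in sgNeg, 41.4 in sgPOU2F3 and 45.0 in the parental library. IL17RB, the receptor for IL-25, had 63.4 and 55.9.

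Surface and secreted proteins outside these lists were also among the largest falls. VCAM1, an adhesion protein for leukocytes, had 53.8 in the parental library, 25.7 in sgNeg and 1.81 in sgPOU2F3, which left 7.05% of the sgNeg level. MSTN, the growth inhibitor myostatin, had 23.6, 24.2 and 3.23. SMR3B, a secreted proline-rich protein of salivary glands, had 20.2, 31.3 and 5.85. DPYSL3, a cytoskeletal protein of neurites, was one of the largest falls at an FPKM of 100 or more, with 206, 182 and 63.6. FOXI1, the factor that specifies ionocytes, fell from 27.6 to 5.53 with 26.9 in the parental library. The other 2 tested genes of the ionocyte list, ATP6V1C2 and ATP6V1B1, subunits of the proton pump, were within 2-fold at 8.09 and 5.85 and at 6.01 and 7.35.

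Keratins, the intermediate filament proteins of epithelia, held 3 of the 15 largest rises, KRT15, KRT9 and KRT13. KRT15, a keratin of basal cells and the largest rise of all, had 5.24 in the parental library, 4.88 in sgNeg and 116 in sgPOU2F3 (23.8-fold in FPKM, log2 ratio 4.32). KRT9 had 0.885, 0.547 and 20.8, and KRT13, a keratin of non-cornifying squamous epithelium, 0.383, 1.21 and 17.8. KRT19 had 12.8, 15.5 and 74.6, and KRT8 28.2, 53.01 and 184. Of the 55 keratin genes in the table, a group put together after values were seen, 14 passed the filter, 3 of them only through sgPOU2F3. Of the 14, 7 rose and none fell, with a median of 1.13, while the median over all 55 was 0.05. The remaining risers were KRT17 (4.29 to 22.4) and KRT28 (4.11 to 13.4). KRT7, the most abundant keratin in sgNeg, hardly moved, at 299 in sgNeg and 317 in sgPOU2F3. KRT18, the partner of KRT8, had 125 and 190 and stayed within 2-fold. Summed over all 55 keratin genes, the FPKM was 517 in the parental library, 548 in sgNeg and 1000.3 in sgPOU2F3. Keratin genes are close in sequence and reads may be split between copies. KRT15, KRT13, KRT19 and KRT9 are next to each other among the expressed genes in RefSeq order, and all 4 rose.

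**Figure D3:**
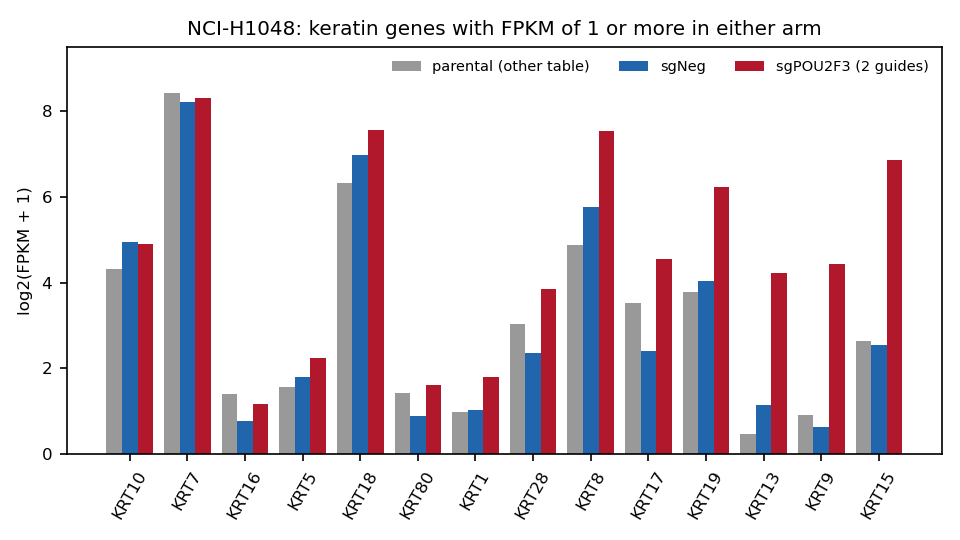
Log2(FPKM + 1) of the 14 keratin genes that passed the filter in the parental library, sgNeg and the combined sgPOU2F3 column, ordered by log2 ratio from left to right; bars start at 0. KRT10 and KRT7 on the left have similar bars in all 3, and KRT13, KRT9 and KRT15 on the right are at 17.8, 20.8 and 116 in sgPOU2F3.

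The basal airway cell list had 10 tested genes of 18, of which 5 rose and none fell, with a median of 0.81 (0.12 with the untested genes included). BARX2, LAMB3 and COL17A1 passed the filter only through sgPOU2F3. KRT15 and KRT17 are given above. BARX2, a homeobox factor, had 0.0303 in the parental library, 0.104 in sgNeg and 3.80 in sgPOU2F3, so the control value rests on few fragments. LAMB3, a chain of the laminin of the basement membrane, rose from 0.506 to 2.66, but the parental library also had 2.72. COL17A1, the hemidesmosome collagen named here after its value was seen, rose from 0.256 to 1.85. The defining basal factor TP63 stayed below the filter, with 0.149 in sgNeg and 0.273 in sgPOU2F3, and KRT5 had 2.48 and 3.75.

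Of 20 tested genes for simple epithelial keratins and adhesion, 4 rose and 1 fell, with a median of 0.12. CLDN4, a tight junction claudin, rose from 14.0 to 70.1 with 7.19 in the parental library. ELF3, an epithelial ETS factor, rose from 7.23 to 22.7 with 2.56 in the parental library. CLDN1, another claudin, went the other way, with 93.6 in the parental library, 61.1 in sgNeg and 18.4 in sgPOU2F3. CDH1, the gene of E-cadherin, had 17.5 and 30.6 and was within 2-fold. Neither TFF1, SPDEF nor any other of 19 secretory and goblet cell genes passed the filter, and their summed FPKM was 3.69 in sgNeg and 3.56 in sgPOU2F3.

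MGP, the matrix Gla protein that inhibits calcification and binds BMPs, had 12.5 in the parental library, 9.70 in sgNeg and 204 in sgPOU2F3 (21.0-fold). AQP1, a water channel, had 2.998, 8.58 and 96.8. It was the only riser among 11 tested genes for aquaporins and ion transport, none of which fell. VTCN1, an immune checkpoint ligand of the B7 family, had 7.16, 9.13 and 62.3. In the insulin-like growth factor axis 3 of 12 tested genes rose and none fell, with a median of 0.38. All 3 encode binding proteins that hold the growth factors in the extracellular space. IGFBP5 had 5.04, 4.41 and 44.0, IGFBP3 14.8, 15.4 and 63.1, and IGFBP7 12.2, 13.9 and 51.4. In each of the 3 the parental and sgNeg values were close.

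Among 14 tested enzymes that build or trim heparan sulfate chains, 3 rose and none fell, with a median of 0.08. HS3ST3B1 and HS3ST3A1 encode sulfotransferases that add the rare 3-O-sulfate. HS3ST3B1 is given with its promoter above, and HS3ST3A1 had 0.651 in the parental library, 0.591 in sgNeg and 3.41 in sgPOU2F3. HS3ST3A1 passed the filter only through sgPOU2F3. The 2 genes are near-identical over their catalytic domain, so the split of reads between them is uncertain. SULF2, a sulfatase that removes 6-O-sulfate outside the cell, had 19.1, 13.8 and 45.3.

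In the mesenchymal and TGF-beta response list 5 of 19 tested genes rose and none fell, with a median of 0.36. VIM, the intermediate filament vimentin, had 305 in the parental library, 507 in sgNeg and 1968 in sgPOU2F3. CD44, the hyaluronan receptor, had 5.79, 5.04 and 30.8, and S100A6, a calcium-binding protein, 5.37, 5.14 and 16.3. SNAI2, a repressor of epithelial genes, had 3.70, 2.91 and 8.77. The fifth was CDH2, N-cadherin, with 8.38 in sgNeg and 21.0 in sgPOU2F3, named after its value was seen. Not all of the list moved this way: ANXA1, an annexin, had 1041 in sgNeg and 603 in sgPOU2F3, within 2-fold, with 2498 in the parental library.

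Of 19 tested genes for YAP, TEAD and their targets, 4 rose and none fell, with a median of 0.42. PRSS23, a secreted protease, had 12.2 in the parental library, 14.1 in sgNeg and 71.2 in sgPOU2F3. CTGF, a matricellular protein, had 16.5, 26.5 and 77.0, CRIM1, a BMP antagonist, 14.3, 8.50 and 24.8, and F3, tissue factor, 3.50, 2.87 and 9.13. YAP1 itself was within 2-fold, at 14.6 and 27.6, and so was CYR61, at 254 and 486.

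HES1, the bHLH repressor that Notch signalling induces, rose from 5.26 in sgNeg to 49.7 in sgPOU2F3, with 3.62 in the parental library (log2 ratio 3.02). It was the only one of 13 tested Notch targets and HES family genes past 2-fold, and the median of the list was 0.22. None of 12 tested Notch receptors and ligands passed 2-fold. JAG1, a Notch ligand, came closest with 11.3 and 21.5, and NOTCH1 had 19.7 and 33.2.

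The list of receptor tyrosine kinases and their ligands held changes in both directions, with 3 of 20 tested genes lower and 2 higher and a median of 0.13. EGFR, the receptor of epidermal growth factor, had 35.2 in the parental library, 30.9 in sgNeg and 10.4 in sgPOU2F3. MET, the receptor of hepatocyte growth factor, had 26.7, 32.4 and 12.4, and EFNB2, a ligand of Eph receptors, 62.4, 78.8 and 32.5. FGFR2, a receptor of fibroblast growth factors, moved the opposite way with 30.1, 28.9 and 80.0. EPHA2, an Eph receptor, rose from 7.43 to 16.8, and was named after its value was seen. Among 21 tested Wnt and BMP genes 1 fell and 3 rose. BMP2, a bone morphogenetic protein, had 89.8, 170 and 57.7, so that sgNeg stood above both other libraries. WNT5A, a ligand of non-canonical Wnt signalling, had 3.67, 4.07 and 15.9, FZD7, a Wnt receptor, 1.61, 3.88 and 10.8, and SMAD6, an inhibitor of BMP signalling, 7.46, 6.52 and 17.1.

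Of 22 tested genes for MAPK feedback and immediate early response, 1 fell and 2 rose. ETV4, an ETS factor downstream of MAPK signalling, had 47.0 in the parental library, 46.0 in sgNeg and 14.2 in sgPOU2F3. FOSL2, an AP-1 subunit, had 13.6, 8.02 and 24.1, and PHLDA1, a gene induced early by growth factors, 10.7, 5.96 and 14.7. The sum over this list was 372 FPKM in the parental library, 2131 in sgNeg and 2232 in sgPOU2F3, so both infected columns stood far above the parental one and near each other. Its part in the differences from the parental library was not tested.

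Proliferation genes showed small differences. None of 33 tested cell cycle genes passed 2-fold, with a median of -0.11 and 25 of 33 below 0. CCNA2, cyclin A, moved most, with 86.8 in the parental library, 59.7 in sgNeg and 42.2 in sgPOU2F3. None of 12 tested cell cycle inhibitors and D cyclins passed it, with CDKN1C, a CDK inhibitor, at 24.9 and 38.8. In the MYC family list none of 10 did, and MYC itself had 194 and 132, while MXD4, a MYC antagonist, moved most, with 37.3 in sgPOU2F3 or 149% of the sgNeg level. None of 19 tested p53 targets passed, with GDF15, a stress-induced cytokine, at 5.33 and 9.47.

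In the list of apoptosis regulators BMF, a BH3-only protein that promotes cell death, was the only one of 17 past 2-fold, at 9.78 in the parental library, 13.9 in sgNeg and 36.2 in sgPOU2F3. In the stress response list 1 of 17 fell, SLC7A11, the cystine importer, from 14.3 to 6.05. No gene passed 2-fold among 22 tested interferon response genes (median 0.25, with IFITM1, an antiviral membrane protein, at 38.8 and 66.9), 15 of antigen presentation (ERAP1, a peptide-trimming enzyme, at 15.2 and 8.54), 20 of hypoxia and glycolysis (PFKFB4, a glycolytic regulator, at 16.5 and 10.0) or 22 of cholesterol and fatty acid synthesis (median 0.09). Of 13 tested enzymes of mucosal lipid, steroid and retinoid metabolism 2 rose and none fell, with a median of 0.57: CYP1A1, which oxidises aromatic compounds, from 3.96 to 10.9, and DHRS3, a retinal reductase, from 7.25 to 18.6.

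**Figure D4:**
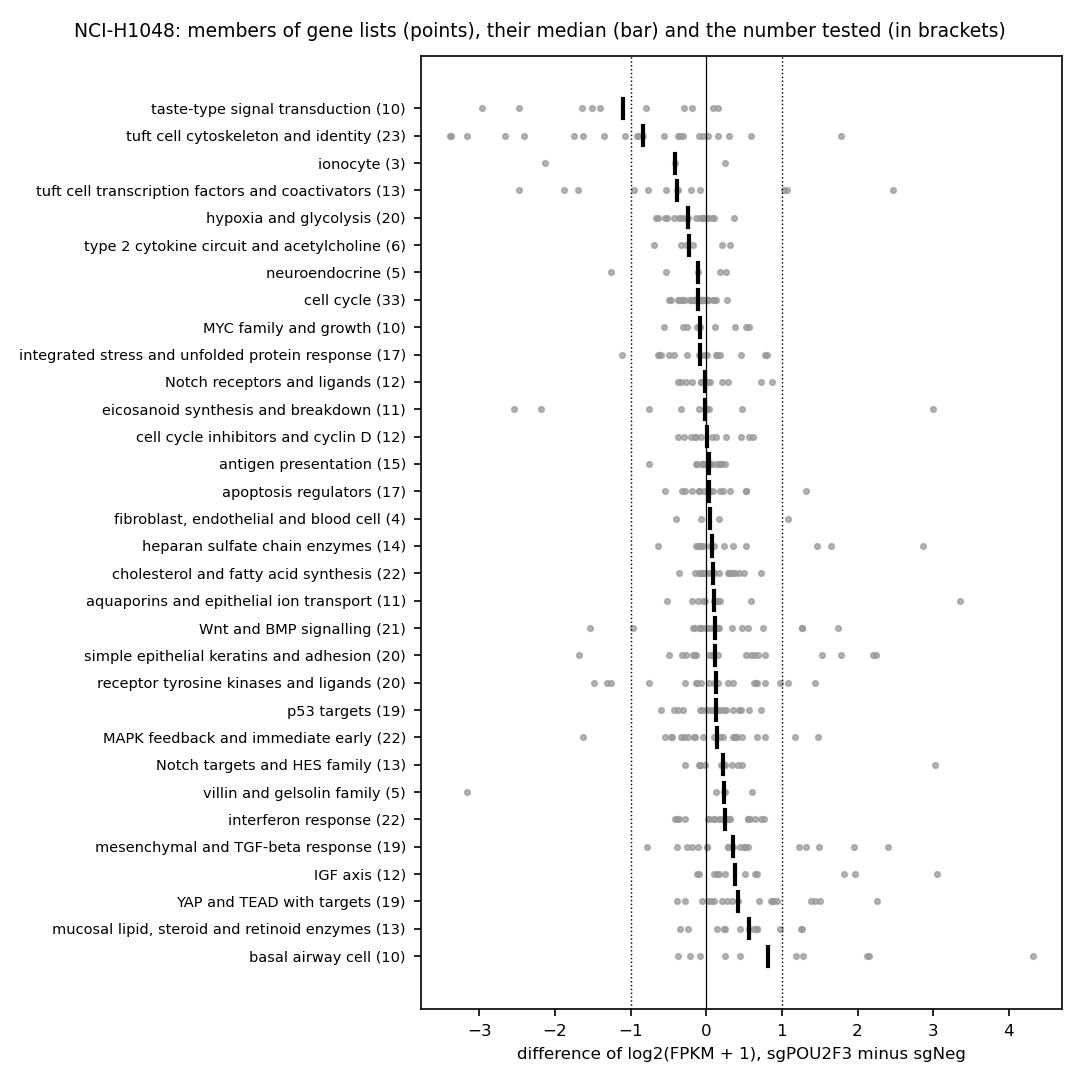
Each grey point is the log2 ratio of 1 tested member of a gene list in NCI-H1048, the black bar is the list's median, dotted lines mark 2-fold, and the number tested stands in brackets. Among tested members only, the taste-type (-1.10) and tuft cell identity (-0.83) lists lie furthest to the left and the basal airway cell list (0.81) furthest to the right. With the untested genes included, the taste-type median comes close to that of all genes and the basal airway median is 0.12. The cell cycle list stays within the dotted lines.

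Most markers of other cell types were below the filter. Among 23 neuroendocrine genes 5 passed it, with a summed FPKM over the list of 1192 in the parental library, 1154 in sgNeg and 1055 in sgPOU2F3. Nearly all of that sum was UCHL1, a deubiquitinase of neurons and many cancer lines, at 1097 in sgNeg and 1016 in sgPOU2F3. NCAM1, an adhesion protein, had 45.1 and 30.9, while CHGA was below 1 FPKM in both columns and NEUROD1 was listed at 0. The fall in this list was INSM1, a zinc finger factor of neuroendocrine cells, with 1.77 in the parental library, 4.90 in sgNeg and 1.46 in sgPOU2F3, so the sgPOU2F3 level was near the parental one. Of 15 fibroblast, endothelial and blood cell genes 4 passed the filter and their sum was 11.1 FPKM in sgNeg and 12.96 in sgPOU2F3. PECAM1, CD3D and HBB were listed at 0 in both columns. PDGFRA, a receptor of platelet-derived growth factor, was the riser, from 1.42 to 4.12.

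Further genes among the 15 largest rises were CYP4X1, a cytochrome P450, from 0.530 to 9.43, PCDH7, a protocadherin, from 1.46 to 13.7, SGK223, a pseudokinase, from 3.36 to 26.1, and FRMD6, a FERM-domain protein upstream of the Hippo pathway, from 3.75 to 26.6. At an FPKM of 100 or more in either column, the largest rises also held PLK2, a polo-like kinase, with 30.6 in the parental library, 27.7 in sgNeg and 133 in sgPOU2F3. BOC, a Hedgehog co-receptor, had 30.7, 33.2 and 147.

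The parental library gave a second baseline. Of 12459 genes with a value in both tables, sgNeg was at least 2-fold lower than parental in 133 (1.07%) and higher in 463 (3.72%), although neither carried a POU2F3 guide. For sgPOU2F3 against parental the counts were 326 (2.62%) and 796 (6.39%). The median difference was 0.11 for sgNeg and 0.11 for sgPOU2F3. Infection, harvest and the separate scaling of the tables cannot be told apart in these differences. The comparisons share samples, so the values of single genes are set side by side above. The 134 named genes past 2-fold against sgNeg were recomputed on this baseline. They are a selection from the 277, many chosen for large changes or after their values were seen. Of the 134, 113 were also past 2-fold in the same direction against the parental library and 21 were not. This share does not stand for all 277. Among those 21, RGS2 went from -1.51 to -0.66, BMP2 from -1.54 to -0.63, INSM1 from -1.26 to -0.17 and EFNB2 from -1.25 to -0.92. The rises of FOSL2 (1.48 to 0.78), CRIM1 (1.44 to 0.76), KRT28 (1.49 to 0.80), CDH2 (1.23 to 0.83), COL17A1 (1.18 to 0.82) and PHLDA1 (1.17 to 0.42) also fell short of 2-fold, and LAMB3 turned from 1.28 to -0.025. PFKFB4, not past 2-fold against sgNeg, turned from -0.67 to 0.97.

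The other 3 lines with a POU2F3 knockout were NCI-H211, harvested on day 4, and NCI-H526 and COR-L311, harvested on day 5, each with the same 2 guides combined and 1 sgNeg library. NCI-H1048 shares its harvest day with NCI-H211, and against NCI-H526 and COR-L311 day and line cannot be told apart. The labels give RPMI or HITES as the medium of the other lines. Among the genes tested in both NCI-H1048 and NCI-H211, 44 of 86 that fell in NCI-H1048 also fell in NCI-H211 (51.2% of the NCI-H1048 genes and 9.22% of the 477 in NCI-H211) and 10 rose there. In NCI-H211 4.22% of the genes tested in both lines fell, and 4.83% of all those tested in it. Of 108 that rose, 70 rose there too (64.8% and, of its 658, 10.6%) and 6 fell, where 5.82% of the genes tested in both rose and 6.86% of all. In NCI-H526, 15 of 88 also fell (17.0%, and 38.5% of its 39) and 4 rose, where 0.342% of the genes tested in both fell and 0.496% of all. Of 83 that rose in NCI-H1048, 28 rose in NCI-H526 (33.7%, and 17.6% of its 159) and 0 fell, where 1.40% of the genes tested in both rose and 2.05% of all. In COR-L311 more of the 82 genes that fell in NCI-H1048 rose than fell, 15 against 7 (8.54%, and 3.27% of its 214), where 1.92% of the genes tested in both fell and 2.12% of all. Of 81 that rose, 24 rose in COR-L311 (29.6%, and 7.77% of its 309) and 4 fell, where 2.78% of the genes tested in both rose and 4.28% of all.

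Expression of the changed genes in the other lines varied. An FPKM of at least 1 in all 3 other lines was found for 61 of those that fell (47.7%), 55 of the 149 that rose (36.9%) and 10429 of all 12460 (83.7%), and no test was made of this difference. VCAM1, ENPP2 and EGFR are examples of genes that were not, with at most 0.0342, 0.165 and 0.0111 FPKM in any column of the other 3 lines, so their ratio there says nothing of a response. POU2F3 itself had a log2 ratio of -3.79 in NCI-H211, -1.29 in NCI-H526 and -0.31 in COR-L311, again for RNA alone. Among the tuft cell genes AVIL had -3.66, -1.21 and -0.95 and LRMP -2.77, -1.28 and -0.68. MGP, VIM and KRT17 rose more in NCI-H211 than in NCI-H1048, at 7.29, 5.27 and 7.28, and lay between -0.38 and 0.77 in the other 2 lines. There MGP and VIM were below 1 FPKM in both arms of each line, and KRT17 in both arms of NCI-H526. Those ratios say nothing of a response. CLDN1, which fell in NCI-H1048, had 4.01 in NCI-H211 and 2.25 in NCI-H526. KRT15 had 0.30 in NCI-H211, 2.30 in NCI-H526 and 0.57 in COR-L311, and AQP1 0.61, 0.12 and 0.04. KRT15 was below 1 FPKM in both arms of NCI-H211 and COR-L311, so the same limit holds for it there.

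**Figure D5:**
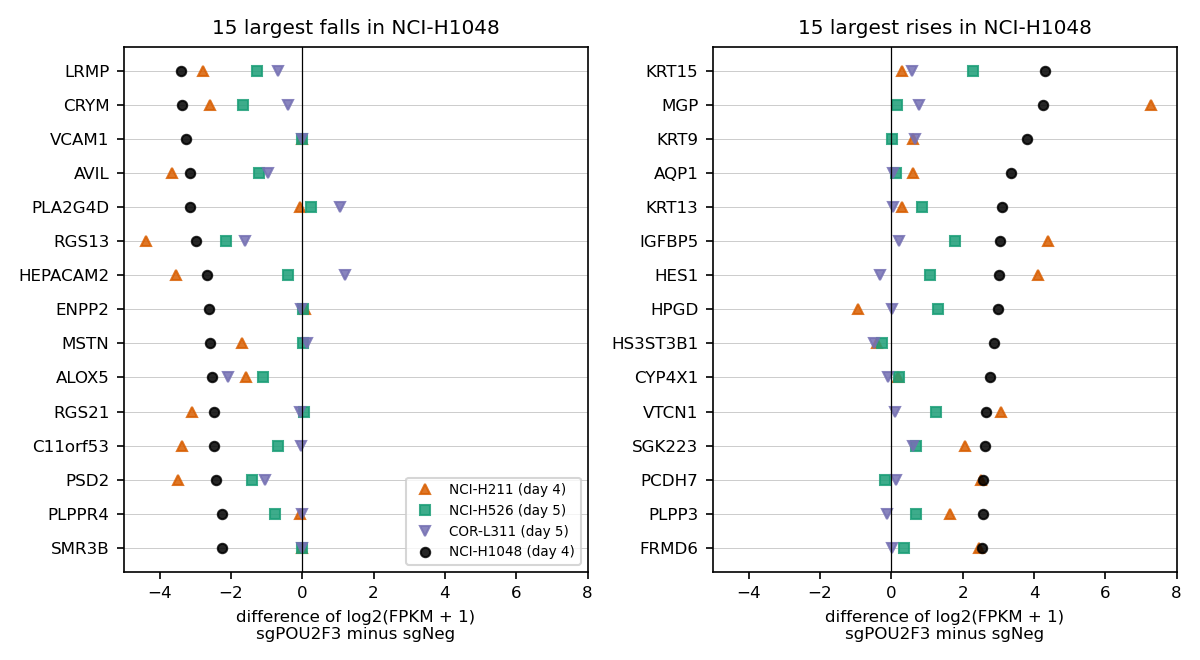
Log2 ratio of sgPOU2F3 minus sgNeg in each of the 4 lines for the 15 largest falls (left) and rises (right) of NCI-H1048, chosen by the black NCI-H1048 points. ALOX5, PSD2 and RGS13 lie to the left of -1 in all 4 lines, whereas VCAM1 and ENPP2, at most 0.0342 and 0.165 FPKM in the other 3 lines, could only lie near 0 there.

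The difference between the NCI-H1048 log2 ratio and the mean of the other 3 was tested with limma on the 8 columns, with terms for line, arm and arm in NCI-H1048 and 2 residual degrees of freedom. Of 10429 genes expressed at 1 FPKM or more in all 4 lines (in either arm), 0 (0%) passed a Benjamini-Hochberg adjusted p of 0.05 in either direction, and the smallest adjusted p was 0.857. At an unadjusted p under 0.05 there were 139 genes (1.33%), 61 lower and 78 higher in NCI-H1048. HS3ST3B1 had the smallest p, with a difference of 3.25 and an SE of 0.32 (limma adjusted p = 0.857, higher in NCI-H1048 than in 3 of 3 other lines). Without NCI-H211 the comparison was with the 2 day 5 lines only, and 16 genes were lower and 14 higher in NCI-H1048 by the same limma test of 10848 genes, on 1 residual degree of freedom and a spread borrowed across genes. AQP1 differed by 3.27 (SE 0.38, limma adjusted p = 0.00121), FOXI1 by -3.65 (SE 0.46, limma adjusted p = 0.00121) and HS3ST3B1 by 3.23 (SE 0.41, limma adjusted p = 0.00121). FOXI1 is lower in NCI-H1048 and NCI-H211, at -2.13 and -2.64, and higher in NCI-H526 and COR-L311, at 1.99 and 1.04. LRMP, AVIL, CRYM, HEPACAM2 and C11orf53 were among the lower genes and HES1, KRT8, CLDN4 and PLPP3 among the higher. The residual comes from the other lines alone, so the spread of NCI-H1048 itself is not in these p-values. The count was 0 with all lines and 0 without COR-L311 or NCI-H526, and day and line cannot be told apart, so nothing particular to NCI-H1048 is read from it.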

How the data were processed

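Polyadenylated RNA of TRIzol extracts was made into libraries with the Illumina TruSeq v2 kit, per the labels' protocols. The authors deposited FPKM values in 1 table for NCI-H1048 with infection and 1 for 14 parental lines, whose label calls the unit RPKM. The submitters' processing notes name TopHat2, Cufflinks, Cuffdiff and hg19. Versions, annotation, strand setting, scaling and how the 2 guides were combined are not given in the sources used here. No counts were used. Values were analysed as log2(FPKM + 1) for genes at an FPKM of at least 1 in either column, with pandas 2.3.3 in Python 3.11.15 and limma 3.58.1 with trend in R 4.3.3. The limma script was tested on simulated data. Depths rest on GENCODE transcript lengths of GRCh38, and promoters on RefSeq GRCh38.p14. RefSeq GRCh38.p14 positions, matched by gene symbol, also gave the order of genes used for neighbours. No GRCh38 coordinate was compared with an hg19 coordinate.

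The 33 gene lists, the members and the rules were chosen with earlier results of these data known, so no list count is independent support. Named genes are POU2F3 and the given markers, the 15 largest falls and rises, the 5 largest in each direction at an FPKM of 100 or more, and up to 4 members of each list past 2-fold or, where there is none, the 1 with the largest change. Any gene of the limma comparison past the threshold was to be added, and there were 0. Some genes that the rule takes or that belong to these groups are not reported here. Other genes named were chosen after their values were seen. MYCL1, PKM2 and SC5DL were not matched in the table. Nothing says that libraries came from separate cultures, and limma's p-values rest on the spread between the 3 other lines, since the NCI-H1048 columns are fitted exactly.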

Additional observations from a re-analysis of the deposited data

Results flagged for a closer look

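Of 116 genes that changed at least 2-fold in NCI-H1048 and were expressed in all 4 lines, 9 had a log2 ratio opposite in sign to that in NCI-H211, NCI-H526 and COR-L311. The differences were not tested by this comparison of signs, and in the limma test across the 4 lines 0 of 10429 genes passed. The share with such signs among all 10429 genes was not counted. The 9 are therefore not read as an excess or as particular to NCI-H1048.

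The largest was HS3ST3B1, with 2.87 in NCI-H1048 and -0.41, -0.25 and -0.48 in NCI-H211, NCI-H526 and COR-L311. CXCR4, a chemokine receptor, had 1.81 against -0.10, -0.40 and -0.26. TXNIP, an inhibitor of thioredoxin induced by glucose, had -1.46 against 1.33, 0.94 and 0.84. With the parental library as baseline, TXNIP in NCI-H1048 was at -0.50, which is within 2-fold. The metallothioneins MT2A and MT1X had 1.30 and 1.14, and in the other lines MT2A had -0.16, -0.09 and -0.94 and MT1X -0.005, -0.03 and -0.76, the first 2 of which are close to 0. ACSS1, a mitochondrial acetyl-CoA synthetase, had 1.003 with -0.56, -0.20 and -0.51 elsewhere. EPM2A, the glycogen phosphatase laforin, had -1.26, RNPC3, a protein of the minor spliceosome, -1.02 and the read-through gene TVP23C-CDRT4 -1.08. EPM2A, RNPC3 and TVP23C-CDRT4 each had a ratio above 0 in the other 3 lines. TVP23C-CDRT4 was low, at 1.70 FPKM in sgNeg and 0.273 in sgPOU2F3, and passed the filter only through sgNeg.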

How the results depend on the processing

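The numbers of lower and higher genes (149 higher) became 209 and 254 with a pseudocount of 0.1, 52 and 69 with a pseudocount of 5, and 354 and 796 with the parental library as baseline, for which the filter was also applied to the parental column. The pseudocount weighs on genes at low FPKM by construction, and for the baseline the cause was not tested. With a filter at FPKM 5 and after quantile normalization both counts stayed within 1.5 times. They also did without a filter and after centring, but these 2 settings could hardly change them. A gene below an FPKM of 1 in both columns cannot reach 2-fold on the log2(FPKM + 1) scale. Centring shifts all ratios by their small median. The POU2F3 ratio ranged from -1.73 to -1.62. Of the recomputed ratios of the 145 named genes, 871 moved by less than 1.5-fold and 121 by more. A change of filter cannot move a gene's ratio, and centring shifts all ratios by the same small amount. The 871 are therefore no measure of stability. The moves by more were 50 with a pseudocount of 5, 48 with the parental baseline and 23 with a pseudocount of 0.1. Of the named genes past 2-fold 1 reversed, LAMB3 with the parental baseline, at -0.025. PFKFB4, not past 2-fold, also changed sign there, from -0.67 to 0.97. Genes past 2-fold outside the named ones changed sign there too, such as ADAMTS1 (-1.59 to 0.58) and CXCL8 (1.06 to -0.44). The cause was not tested for any of them. List medians moved by over 1.5-fold in 12 recomputations and not in 212. The 212 include those after centring, which could hardly move. The tuft cell transcription factor list went from -0.38 to 0.22 with the parental baseline, the taste-type list to -0.42 with a pseudocount of 5 and to -0.01 without a filter, and the basal airway cell list to 0.12 without a filter and 0.08 at FPKM 5. For the differences from the other lines, leaving out 1 line at a time gave 0 to 16 lower and 0 to 14 higher genes, the 16 and 14 without NCI-H211. All other settings gave 0, with a smallest adjusted p of 0.0912, at a pseudocount of 5. No paired analysis was possible because the deposited column combines both guides and the control has 1 guide. Each guide alone, and guides as replicates with a replicate block, were not run for the same reason. The depth of 10.8 M fragments in sgNeg limits ratios of genes near an FPKM of 1.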

Other observations

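Gene families put together after values were seen held further changes in NCI-H1048. Over all genes tested 1.03% fell and 1.2% rose, but the choice of families by their values leaves their counts without weight beside these shares. Of 7 alcohol dehydrogenases, which oxidise ethanol and retinol, 4 were tested and 3 fell: ADH1B from 4.35 to 0.179, ADH1C from 3.94 to 0.0989 and ADH6 from 2.48 to 0.501. All 3 passed the filter only through sgNeg. ADH1B and ADH1C are near-identical, so the split of reads between them is uncertain. All 3 tested metallothioneins, which bind zinc and copper, rose, with MT2A at 39.4 in the parental library, 42.8 in sgNeg and 107 in sgPOU2F3. MT1X had 24.4, 12.5 and 28.8, so it was within 2-fold of the parental library. In the Hedgehog pathway 4 of 12 tested genes rose and none fell. Beside BOC they included the receptor PTCH1 (4.89 to 14.5) and the factor GLI3 (0.518 to 2.04), while GLI1 had 1.61 and 3.08. GLI3 passed the filter only through sgPOU2F3. Of 10 tested protease inhibitors of the WAP and SPINK families 4 rose and 1 fell. SPINK6 rose from 18.6 to 59.8, SPINK13 from 1.62 to 11.4, SLPI from 5.66 to 18.2 and PI3 from 0.706 to 3.18, whereas SPINK1 fell from 18.2 to 5.93. PI3 passed the filter only through sgPOU2F3.

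Several genes that changed were next to each other in RefSeq order (GRCh38.p14) among 12414 expressed genes placed. Of the 127 genes that fell and were placed, 23 made 13 such pairs. Among them were RGS21, RGS13 and RGS2, ADH6, ADH1B and ADH1C, FOXI1 with C5orf58 and LCP2, and POU2F3 with TMEM136 (9.15 to 3.95). Of the 149 that rose and were placed, 21 made 12 pairs. Among them were the 4 keratins above, the 3 metallothioneins, SPINK6 with SPINK13, and PI3 with SLPI. Reads of overlapping neighbours are not separated without strand, and no test was made of these numbers. How many pairs as many genes drawn from all those placed would make was not counted. Several of the runs belong to gene families put together after values were seen. The pairs are therefore not read as an excess.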
